A study of Mus musculus with 9 samples.

Results

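The sites described here are the Suz12 sites of mouse embryonic stem cells at which neither H3K27me3 nor Phf19 was listed. They are called Suz12-only sites below. They were chosen from the deposited list of 8054 Suz12 sites as those that share no base with any of the 8280 H3K27me3 sites of control cells or any of the 4633 Phf19 sites. This left 2282 sites, 28.3% of the Suz12 list (95% interval 27.4 to 29.3), with a summed length of 2.57 Mb, or 16.5% of the length of all Suz12 sites. The remaining Suz12 sites overlapped control H3K27me3 without Phf19 (3848 sites), both (1849 sites) or Phf19 without control H3K27me3 (75 sites). Of the 2357 Suz12 sites without control H3K27me3, 96.8% were thus also without Phf19.

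The study profiled chromatin by immunoprecipitation and sequencing (ChIP-seq) in E14Tg2A cells, a male mouse embryonic stem cell line kept without feeder cells in serum with leukemia inhibitory factor. Suz12 and Phf19 were mapped in wild-type cells, Suz12 in 1 library and Phf19 in 2 replicates whose common sites form the Phf19 list. H3K27me3 was mapped in 1 library of control cells that carry a random short hairpin RNA (shRd) and in 1 library of cells depleted of Phf19 by a hairpin against it (shPhf19), with different antibody catalogue numbers in the labels. The labels do not give the degree of depletion, the number of clones or the time after transduction. Each list holds positions alone, in the mouse build mm9, without heights, scores or read counts, so depth is unknown and a site that is not listed may still carry a weaker signal. No expression was measured, so cell identity could not be checked against marker genes. Libraries other than Phf19 have no replicate, and all intervals below cover counting error over sites only, although neighbouring sites are not independent.

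Suz12 is a core subunit of Polycomb repressive complex 2 (PRC2), in which the catalytic subunit Ezh2 or Ezh1 places methyl groups on lysine 27 of histone H3. The trimethylated form, H3K27me3, marks genes held silent, and in embryonic stem cells PRC2 and H3K27me3 are known to lie together over CpG islands of developmental regulators such as the Hox genes. Phf19 is one of the Polycomb-like proteins, accessory subunits that bind histone H3 methylated at lysine 36 through a Tudor domain and help place PRC2 on chromatin.

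Suz12-only sites were narrow. Their median width was 932 bp (interquartile range 649.5 to 1329, total range 173 to 87909), against 1631.5 bp for Suz12 sites with control H3K27me3 alone, 1740 bp for those with Phf19 alone and 2820 bp for those with both. Of these sites, 54.9% were under 1 kb wide, compared with 16.8%, 16.0% and 3.79% in the other classes in the same order. At the upper end 12 Suz12-only sites were wider than 5 kb. When the whole Suz12 list was divided into 5 equal classes of width, Suz12-only sites made up 66.6% of the narrowest class (173 to 896 bp, interval 64.2 to 68.9). Their share was 41.0%, 22.0% and 8.63% in the next classes and 3.35% in the widest (2618 bp and above, 2.53 to 4.35). A narrow site meets another list less often than a wide one, so these shares describe the selection and are given without a test.

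**Figure D1:**
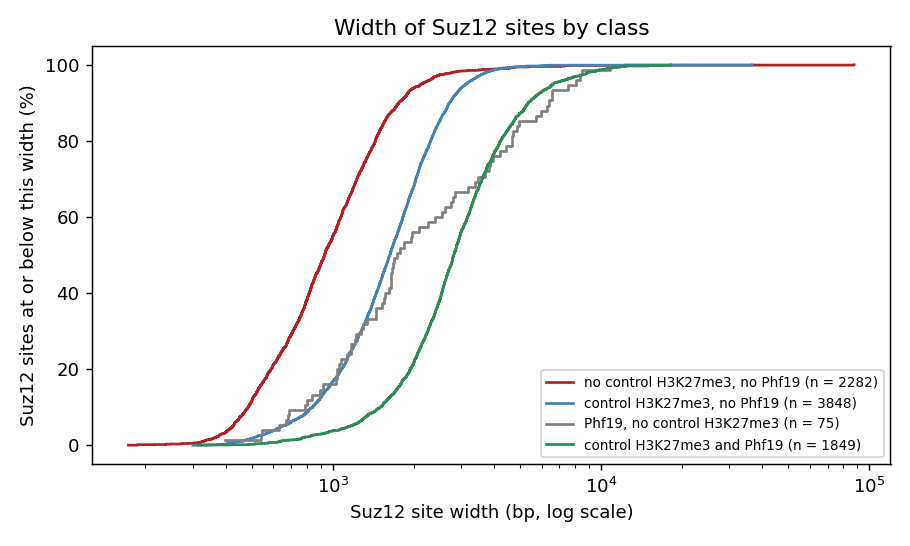
Cumulative share of Suz12 sites (vertical axis, %) by site width (horizontal axis, bp, log scale), with 1 line for each class of overlap. The line of the 2282 sites without control H3K27me3 or Phf19 lies left of the others, with a median of 932 bp.

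The 5 narrowest sites were chr4:73460679-73460852 (173 bp), chrX:15651474-15651659 (185 bp), chr11:73391912-73392099 (187 bp), chr13:87205641-87205831 (190 bp) and chr1:8659178-8659394 (216 bp). All 5 stood apart from other listed sites: the nearest Suz12 neighbour was between 23.3 kb and 1755 kb away. The 10 widest sites were of another kind, since all but 1 of them lay in rows of closely spaced sites on chromosomes 6 and 1 that are described below. The exception, chr8:126060856-126148765, was the widest Suz12 site of all at 87.9 kb. It had a further Suz12 site 3.39 kb away and a control H3K27me3 site 21.7 kb away, while the nearest H3K27me3 site of the depleted cells was 2410 kb off.

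Most Suz12-only sites lay more than 10 kb from control H3K27me3. The median distance to the nearest control H3K27me3 site was 94.6 kb (interquartile range 23.2 to 249.9, maximum 7873). It was 57.4 kb when a site counted as overlapping only if 50% of the shorter site was shared, which enlarged the set to 2778 sites and put 30.6% of them within 10 kb. With overlap by a single base, only 129 sites (5.65%, 4.74 to 6.68) lay within 1 kb and 357 (15.6%, 14.2 to 17.2) within 10 kb, whereas 75.4% of all Suz12 sites overlapped a control H3K27me3 site or lay within 10 kb of one. Since the selection itself removed every overlapping site, that contrast carries no test. A further 810 sites lay between 10 and 100 kb away, 1018 between 100 kb and 1 Mb, and 97 beyond 1 Mb. Median width was nearly the same in all 5 distance bands, between 900 and 989.5 bp. Sites enclosed by H3K27me3 were few: 36 had a control H3K27me3 site within 10 kb on both sides, and 4 had one within 1 kb on both sides.

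For comparison, Suz12 sites with control H3K27me3 alone had a median of 36.9 kb to the next H3K27me3 site beyond those they overlapped, and sites with both marks 27.04 kb. The 75 sites with Phf19 but without control H3K27me3 were also nearer to the mark, at a median of 21.1 kb. Phf19 was farther still from Suz12-only sites. Its nearest site lay at a median of 247.6 kb, with 18 sites within 1 kb and 122 (5.35%, 4.46 to 6.35) within 10 kb, against 34.5% of all Suz12 sites that overlapped Phf19 or lay within 10 kb of it. The selection removed every site that overlapped Phf19, so this contrast carries no test either. The Phf19 list is also shorter than the control H3K27me3 list (4633 against 8280 sites), and a shorter list makes longer distances by itself. Counting all 4 lists together, 1648 Suz12-only sites (72.2%) had no other listed site within 10 kb, 713 (31.2%) had none within 100 kb and 24 had none within 1 Mb. The selection raises these counts, since no Suz12-only site can overlap control H3K27me3 or Phf19. The same shares were not computed for the other classes or for all Suz12 sites.

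**Figure D2:**
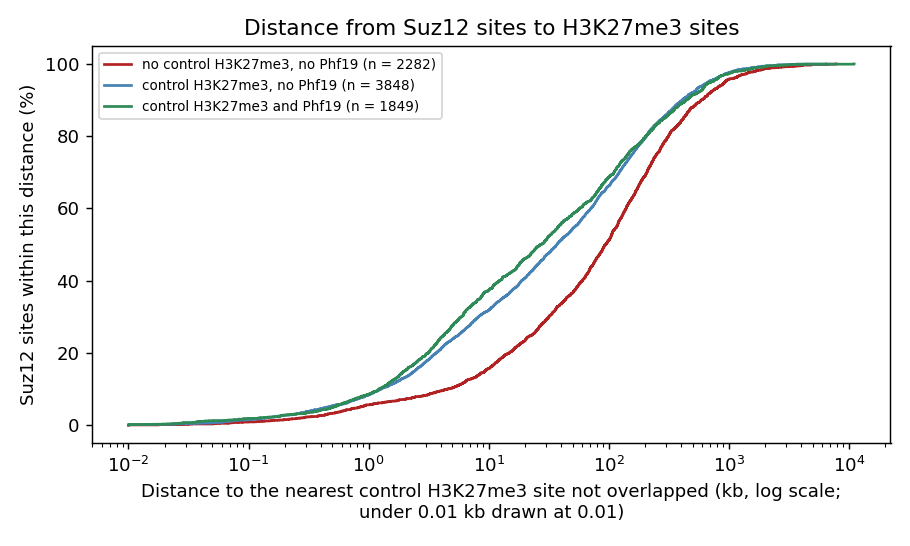
Cumulative share of Suz12 sites (vertical axis, %) by distance to the nearest control H3K27me3 site that they do not overlap (horizontal axis, kb, log scale). The line of the Suz12-only sites lies to the right of both classes with H3K27me3, with a median of 94.6 kb against 36.9 and 27.04 kb.

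The boundary of the selection was a single shared base. Just inside it were chr15:96598606-96599555, whose edge coincides with the edge of an H3K27me3 site, chr5:125341739-125342952 (3 bp away), chr13:117103689-117104542 and chr13:117497429-117498236 (both 18 bp away) and chr11:80623198-80623954 (29 bp away). Just outside were sites that shared 2, 3 and 4 bp with H3K27me3, at chr12:106251335-106251965, chr13:54287198-54288265 and chr6:41555096-41556248. For Phf19 the nearest sites inside were 49 and 56 bp away and the nearest outside shared 5 and 7 bp. In all, 21 Suz12-only sites came within 100 bp of control H3K27me3 and 2 within 100 bp of Phf19.

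The X chromosome stood out. It held 177 of the Suz12-only sites, 7.76% (6.69 to 8.93), and 67 of the 5772 other Suz12 sites, 1.16% (0.901 to 1.47), against 3.03% of all Suz12 sites. The difference from all other Suz12 sites was 6.60 percentage points (Newcombe 95% interval 5.52 to 7.79). It did not hold against every class. Of the 75 sites with Phf19 alone, which also lack control H3K27me3, 7 were on the X, 9.33% (3.84 to 18.3). The difference from these was -1.58 points (-10.3 to 3.30). The lists used for the selection were sparse on the X, as given below, so these differences carry no test. Seen from the chromosome, 72.5% of its 244 Suz12 sites were Suz12-only (66.5 to 78.0), whereas the 19 autosomes ranged from 19.9% on chromosome 15 to 34.1% on chromosome 12, with 26.9% (25.9 to 27.9) over all of them. All 5 Suz12 sites listed on the Y chromosome were Suz12-only.

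The share of Suz12-only sites was higher on the X than on autosomes in every width class. Among the narrowest of the 5 classes of Suz12 sites 88.4% of those on the X and 65.3% of those on autosomes were Suz12-only, a difference of 23.1 points (14.3 to 28.8). In the middle class the shares were 79.5% and 20.4%, a difference of 59.1 points (44.9 to 68.6). In the widest class they were 16.7% (5 of 30 sites) and 3.10%, a difference of 13.6 points (4.19 to 30.5). The lists that defined the selection were themselves sparse there: the X held 1.50% of control H3K27me3 sites and 0.777% of Phf19 sites, but 3.64% of the H3K27me3 sites of depleted cells. A Suz12 site on the X thus had fewer listed sites to meet. The shares and differences by width class are therefore a description without a test. Density of Suz12-only sites on the X was 1.10 per Mb between its first and last Suz12 site, near the top of the autosomal range of 0.628 to 1.25. Only chromosome 11, at 1.25, was higher, and chromosome 12 came next at 1.06.

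**Figure D3:**
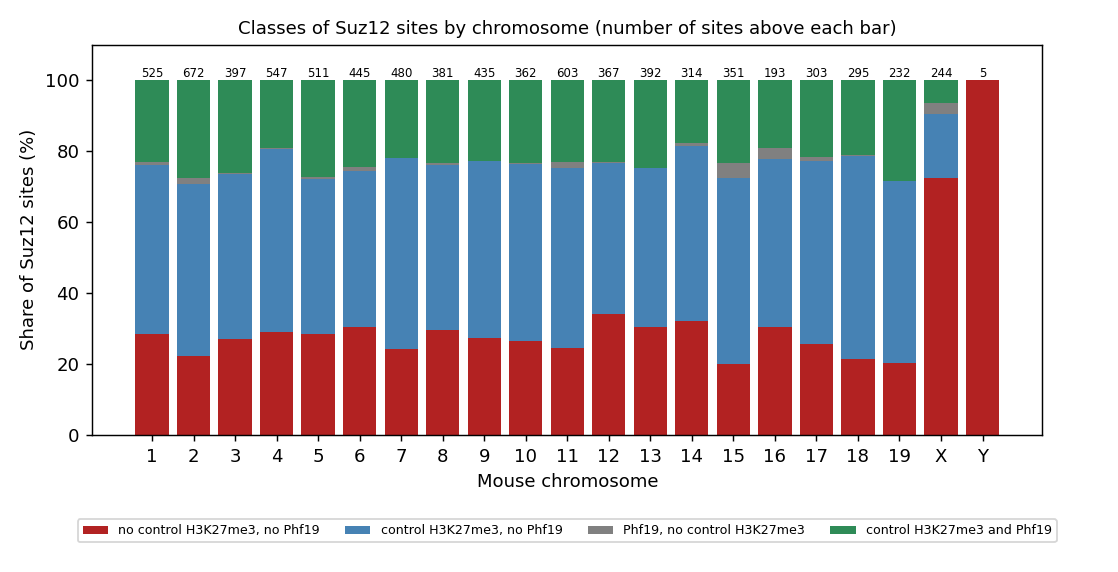
Share of Suz12 sites in each class of overlap (vertical axis, %, stacked bars from 0) on each mouse chromosome, with the number of Suz12 sites above the bar. Suz12-only sites make up 19.9% to 34.1% of sites on autosomes and 72.5% on the X chromosome.

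Distances from Suz12-only sites were longer on the X as well. The median from a Suz12-only site to control H3K27me3 was 396.5 kb there and 88.6 kb on autosomes, where the medians of single chromosomes ran from 36.1 kb (chromosome 15) to 143.7 kb (chromosome 14). To Phf19 it was 1500 kb (1231 to 1766) on the X and 225.2 kb on autosomes. Other classes were measured to the next control H3K27me3 site that they did not overlap. Sites with H3K27me3 alone had medians of 204.6 kb on the X (44 sites) and 36.6 kb on autosomes. For sites with Phf19 alone the medians were 257.2 kb (7 sites) and 20.2 kb. Sites with both went the other way, with 14.0 kb (16 sites) and 27.5 kb. The 5 Suz12-only sites farthest from control H3K27me3 were all on the X. They were chrX:20937812-20939013 (7873 kb away), chrX:19868133-19869559 (6803 kb), chrX:19636559-19638757 (6572 kb) and a close pair at chrX:40780207-40782653 and chrX:40783071-40784183 (4913 and 4911 kb), 418 bp apart. Widths differed little, with medians of 1035 bp on the X (881 to 1211) and 927.5 bp on autosomes (902 to 949).

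Along the chromosomes, Suz12-only sites were mostly solitary. Joined wherever the gap was at most 10 kb, the 2282 sites formed 2113 runs, of which 1999 held a single site. Another Suz12-only site lay within 10 kb of 283 sites (12.4%, 11.1 to 13.8), in 100 pairs, 7 runs of 3, 3 runs of 4 and 4 longer runs. Any other Suz12 site lay within 10 kb of 499 of them (21.9%, 20.2 to 23.6), against 36.8% of sites with control H3K27me3 alone, 47.8% of sites with both and 35.3% of all Suz12 sites. The difference from sites with H3K27me3 alone was -14.9 points (-17.2 to -12.6), and on autosomes alone -15.3 points (-17.6 to -12.9). Within 1 kb the shares were 9.90% and 19.8%, a difference of -9.90 points (-11.6 to -8.11), with 19.9% over the whole list. Since sites close together meet the same stretch of the lists used for the selection, these differences carry no test.

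These shares depended on how closely spaced sites were counted and on width. With Suz12 sites within 1 kb merged into 1, another Suz12-only site lay within 10 kb of 6.15% and any Suz12 site within 10 kb of 13.7%, against 22.1% of merged sites with control H3K27me3 alone and 21.7% of all merged sites. The difference was then -8.36 points (-10.4 to -6.30). Among Suz12 sites at or above the median width the order turned: 24.2% of the 318 Suz12-only sites had a Suz12 neighbour of that width within 10 kb, 5.30 points (0.574 to 10.6) more than sites with H3K27me3 alone. Without the runs of at least 5 sites described below, the share among these wide sites was 11.7% and the difference -7.19 points (-10.9 to -2.54), but runs are defined by the spacing itself, so this value is a description.

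Where a Suz12 neighbour did lie within 10 kb, the nearest was itself Suz12-only in 272 of 499 cases (54.5%), carried H3K27me3 alone in 164, both marks in 49 and Phf19 alone in 14. Without the runs of at least 5 sites it was 223 of 449 (49.7%). At any distance the order was different, with H3K27me3 alone at the nearest Suz12 site in 953 of 2282 cases (41.8%) and neither mark in 926 (40.6%). Suz12-only sites are 28.3% of the list. Sites close together meet the same stretch of the lists used for the selection, and a pair of mutual neighbours is counted from both ends. These shares are thus a description without a test, and the same share was not computed for the other classes.

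The longest run was far larger than the others, and its sites came in a few distinct widths. At chr6:114439480-114585264, 29 Suz12-only sites followed each other over 145.8 kb with a median gap of 97 bp and covered 88.1% of it. No other class of Suz12 site interrupted them, which follows from the selection and the distances to control H3K27me3 and Phf19 given below. Their widths fell into separate groups: 15 sites of 2093 to 2591 bp, 7 of 4573 to 4773 bp, 5 of 7024 to 7400 bp and 2 of 12095 and 12241 bp, with none between. The nearest control H3K27me3 site was 89.1 kb from the run and the nearest Phf19 site 205.1 kb. Among the 10 widest Suz12-only sites were 7 of this run, at chr6:114535951-114548192 (12.2 kb), chr6:114465582-114477677 (12.1 kb), chr6:114518914-114526314 (7.40 kb), chr6:114565738-114573049 (7.31 kb), chr6:114492175-114499469 (7.29 kb), chr6:114455977-114463072 (7.10 kb) and chr6:114526439-114533463 (7.02 kb).

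The next runs by number of sites were shorter and differed in density. At chr4:88417268-88453065, 10 sites of 1313 to 5425 bp covered 92.9% of 35.8 kb, beginning 6.95 kb from a control H3K27me3 site. Further Suz12 sites, at -16.6 to -6.93 kb from the start of this run, lay on that H3K27me3 site. The row of Suz12 sites thus went on there, and the selection set where the run began. At chr1:172993497-173016447, 5 sites of 1915 to 7711 bp covered 99.1% of 22.9 kb, with gaps of 12 to 108 bp, 105.6 kb from control H3K27me3. A run of 6 sites at chr11:96167759-96177921 lay inside the HoxB cluster and covered 74.3% of 10.2 kb. A run of 4 at chr9:120077414-120100513, the first of 3 runs of that size, was looser and covered 13.0% of 23.1 kb. The 4 runs of at least 5 sites held 50 sites, 2.19% of the set, but 7.47% of its length, and 11 of the 12 sites wider than 5 kb.

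**Figure D4:**
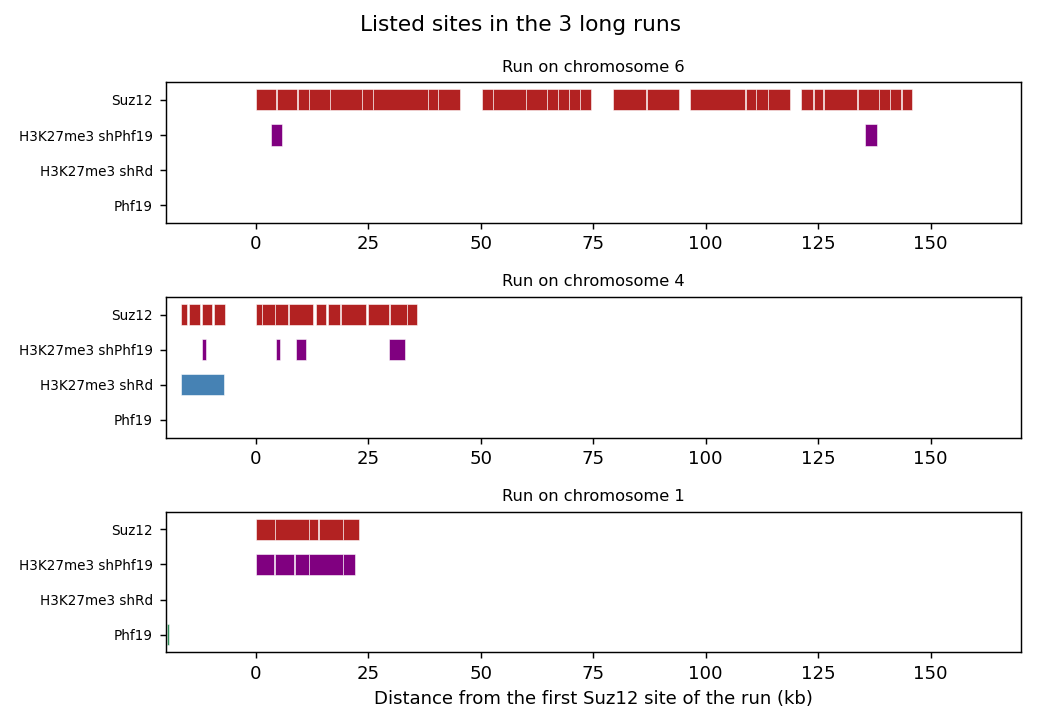
Listed sites (filled boxes, 1 row for each list) in the 3 long runs of Suz12-only sites outside the Hox clusters, by distance from the first site of the run (horizontal axis, kb). The run on chromosome 6 holds 29 Suz12 sites and 2 H3K27me3 sites of depleted cells, and that on chromosome 1 holds 5 of each.

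A repeated arrangement was seen on chromosome 4. Of the 7 runs of 3 sites, 3 lay within 1 Mb of each other, at chr4:42040284-42056023, chr4:42322894-42338225 and chr4:42680348-42695699, with lengths of 15.7, 15.3 and 15.4 kb. Each held a site of 3956, 4152 or 3650 bp, a small site of 709, 744 or 567 bp beside it, and a site of 1940, 1832 or 1138 bp on its other side, after a gap of 8850, 8443 or 9128 bp. The order was reversed in the second run. These runs were singled out after their values were seen.

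On a larger scale, Suz12-only sites were counted between neighbouring sites of the control H3K27me3 list, and a few intervals held many of them. Of 1511 intervals between neighbouring control H3K27me3 sites that held a Suz12-only site, 1080 held a single one and 32 held 5 or more, 240 sites in all. The interval with the most, 29 sites in 566.2 kb, was that of the chromosome 6 run. It was followed by chrX:34590532-45695317 with 13 sites in 11.1 Mb, chr12:18144478-21118272 with 12 in 2.97 Mb, chr4:41680551-42927929 with 10 in 1.25 Mb and chr4:88410321-88582500 with 10 in 172.2 kb. None of these 5 intervals held a Phf19 site. Because they also lie between control H3K27me3 sites, any Suz12 site inside them was Suz12-only by the selection. Going along each chromosome in the order of Suz12 sites, 14 uninterrupted series of at least 7 Suz12-only sites were found, 7 of them on the X. A higher share makes longer series by itself, and it was 72.5% on the X against 26.9% on autosomes. Such a series need not be dense: that at chrX:13422934-33870994 held 8 sites in 20.4 Mb.

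The list of H3K27me3 sites in Phf19-depleted cells was not itself used to choose the sites, but it is not independent of the choice. Only 163 of its 1180 sites (13.8%) lay off a control H3K27me3 site, and the selection removed every Suz12 site that overlapped control H3K27me3. A low share at Suz12-only sites was therefore largely set by the selection, and shares against classes with control H3K27me3 are given as a description without a test. H3K27me3 in depleted cells was listed at 30 of 2282 Suz12-only sites, 1.31% (0.889 to 1.87), against 11.0% of all Suz12 sites. The share was 5.87% (5.15 to 6.66) at sites with control H3K27me3 alone, 32.4% (30.3 to 34.6) at sites with both and 45.3% (33.8 to 57.3) at the 75 sites with Phf19 alone. Sites with Phf19 alone also lack control H3K27me3, and the difference from them was -44.0 points (-55.2 to -33.2), although they were wider, as given above. They also lay close together: 31 of the 75 (41.3%) had another such site within 1 kb. Chromosomes 15, 2 and 11 held 15, 11 and 11 of them. The 75 sites are thus not independent places, and the interval does not allow for this. At Suz12-only sites inside the Hox clusters, described below, the share was 54.5% (12 of 22). Each H3K27me3 list is 1 library, so the intervals hold no error between cultures. From the other side, 27 H3K27me3 sites of depleted cells lay on a Suz12-only site, and none of the 27 overlapped a control H3K27me3 site. They were 16.6% of the 163 sites off control H3K27me3. Of these 163, 44 lay on a Suz12 site with Phf19 alone, 8 on one with both marks and 93 on no Suz12 site, where a site can meet more than 1 class.

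The shares varied with width. In the 4 narrower classes the share at Suz12-only sites was below that at sites with H3K27me3 alone, from 0.652% against 4.44% in the narrowest to 2.88% against 7.60% in the class of 1860 to 2617 bp. In the widest class the order turned, with 13 of 54 Suz12-only sites (24.1%, 13.5 to 37.6) against 12.7% (9.80 to 16.0). Of the 54 sites, 26 lay in the 3 long runs on chromosomes 6, 4 and 1 or in the Hox clusters, and 11 of these had the mark in depleted cells, as did 2 of the other 28 (7.14%, 0.877 to 23.5). These places were singled out after their values were seen, so the split is a description and does not show whether the order holds elsewhere.

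**Figure D5:**
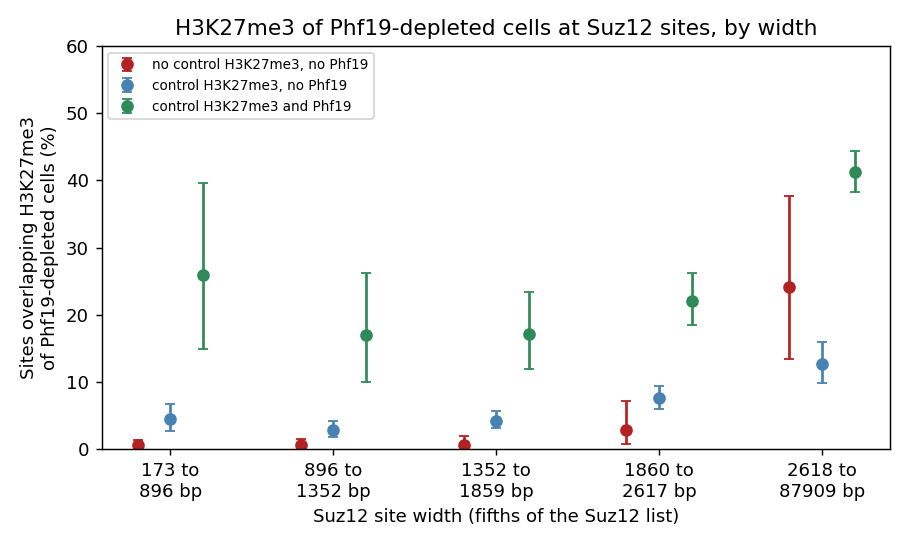
Share of Suz12 sites that overlap an H3K27me3 site of Phf19-depleted cells (vertical axis, %) in 5 equal classes of Suz12 width (horizontal axis, bp), by class of overlap, with exact 95% intervals as bars. Suz12-only sites are at 0.563% to 2.88% in the 4 narrower classes and at 24.1% in the widest.

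Most of the 30 sites lay in the same places, again picked with their values known. The 3 long runs held 44 Suz12-only sites, 11 with the mark in depleted cells (25.0%, 13.2 to 40.3), and the Hox stretches held 22, 12 with it (54.5%, 32.2 to 75.6). Everywhere else it was 7 of 2216 sites, 0.316% (0.127 to 0.650). The 30 sites were wider than the rest, at a median of 2096.5 bp (1149 to 3483) against 929 bp (902 to 951). They also lay nearer to control H3K27me3, at a median of 15.5 kb (8.35 to 89.1) against 96.1 kb (87.3 to 104.7). Sites of depleted cells covered between 20.3% and 100% of them, with a median of 74.0%. A wider site meets another list more often, and 23 of the 30 lay in the long runs and Hox stretches, where neighbours are not independent. These medians are thus a description without a test. The 7 sites elsewhere had a median width of 1149 bp (439 to 4324).

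All 5 sites of the chromosome 1 run carried the mark in depleted cells, and 4 of them were among the 10 widest that did: chr1:172997725-173005436 (95.7% covered), chr1:173007471-173012923 (98.9%), chr1:172993497-172997690 (94.6%) and chr1:173012964-173016447 (76.2%). On chromosome 4, chr4:88424590-88429958 was covered to 40.9% and chr4:88447194-88450806 to 92.2%. The mark was scarcer along the chromosome 6 run, where 3 of 29 sites had it: chr6:114573346-114577953 (59.2%), chr6:114444127-114448709 (26.9%) and chr6:114439480-114444053 (27.7%). The last of the 10 widest was a lone site, chr15:91736643-91740967, which was covered in full and lay 141.2 kb from control H3K27me3 and 232.8 kb from Phf19.

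Inside the Hox clusters, which encode the transcription factors that pattern the body axis and are classical PRC2 targets, the sites had another setting. The control H3K27me3 list has a gap in each cluster, at chr6:52141804-52171839 (HoxA), chr11:96126761-96180330 (HoxB), chr15:102785658-102854351 (HoxC) and chr2:74511251-74559320 (HoxD). The cluster names come from textbook knowledge of mm9, not from an annotation. These gaps of 30.0, 53.6, 68.7 and 48.1 kb held 3, 7, 7 and 5 Suz12-only sites, next to 11, 24, 32 and 13 Phf19 sites. Phf19 lay close to each of the 22 sites, between 56 bp and 7.80 kb away, compared with a median of 247.6 kb over all Suz12-only sites. The mark in depleted cells was listed at 1 of the 3 sites in HoxA, 4 of 7 in HoxB, 4 of 7 in HoxC and 3 of 5 in HoxD.

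In HoxB, for example, the neighbours chr11:96172370-96174348, chr11:96174874-96177089 and chr11:96177096-96177921 all carried it, and the last was covered in full, while the 3 sites before them in the same run did not. In HoxD the site chr2:74511784-74514699 lay 0.533 kb from the edge of control H3K27me3 and was covered to 29.4% in depleted cells. Its neighbour chr2:74514802-74515731 lay 0.254 kb from a Phf19 site and was covered in full. Outside the Hox clusters and the long runs, only 7 Suz12-only sites had H3K27me3 in depleted cells, with widths from 439 to 4324 bp. A pair of these lay close together on chromosome 3, at chr3:25444436-25445048 and chr3:25455987-25456426, and another was on the Y chromosome. The Hox stretches and these single sites were chosen after their values were seen.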

How the data were processed

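The authors deposited 4 lists of sites, each with chromosome, start and end, and no other value. Per the submitters' processing notes, the tools were MACS 1.4.1 and Bowtie 0.12.7 and the build was mm9, with no role stated. How peaks were thresholded, and against which control, was not found in those notes or the labels. The unit is thus a position in base pairs, as the authors deposited it. Starts were taken to count from 0, and sites to overlap when they shared at least 1 base. Width is end minus start, and distances run from edge to edge on 1 chromosome. Shares carry exact Clopper-Pearson 95% intervals, medians an exact binomial interval, and differences of shares a Newcombe interval. No p-value was computed. Both counts checked against bedtools 2.31.1 were equal, and planted overlaps, distances and runs were recovered in simulated data (2000 of 2000 distances).

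Named sites are the 10 widest, the 5 narrowest, the 5 nearest to and 5 farthest from control H3K27me3, the 10 widest with H3K27me3 in depleted cells, and the 5 runs and 5 intervals with the most sites. The sites and lists were chosen with earlier results of these data known. The H3K36me3, H3K36me2 and IgG samples were not analysed here. Gene names and sequences were not used, because the reference tables are of another build. Scripts ran in Python 3.11.15 with statsmodels 0.14.6 and scipy 1.17.1 for intervals, pandas 2.3.3 and numpy 2.4.6 for tables, and matplotlib 3.10.9 for plots.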

Additional observations from a re-analysis of the deposited data

How the results depend on the processing

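Of 80 alternative values for 12 results, 43 lay inside the reported interval or kept the sign and the interval of a difference off 0, 35 moved beyond it, 1 difference had an interval that included 0 and 1 changed sign. Both were among sites at or above the median Suz12 width and against sites with control H3K27me3 alone: H3K27me3 in depleted cells, -2.22 points (-4.62 to 1.07), and any Suz12 site within 10 kb, 5.30 points (0.574 to 10.6). Values below follow the order share of Suz12-only sites, median width, share within 10 kb of control H3K27me3, median distance to it, share within 10 kb of Phf19, share with another Suz12-only site and with any Suz12 site within 10 kb, and share with H3K27me3 in depleted cells, leaving out those that did not move. Counting sites within 1 kb as overlapping gave 26.6%, 10.4%, 106.4 kb, 3.74% and, for any Suz12 site, 18.7%. Requiring 50% of the shorter site gave 34.5%, 1024 bp, 30.6%, 57.4 kb, 7.31% and, in depleted cells, 0.828%. At or above the median Suz12 width the values were 7.90%, 1922.5 bp, 14.2%, 106.8 kb, 17.3%, 24.2% and 5.66%, and 10.7% lay on the X. On autosomes the share was 26.9%. Merging Suz12 sites within 1 kb gave 29.7%, 13.1%, 4.30%, 6.15%, 13.7% and 0.520%. With limits of 5 and 50 kb, another Suz12-only site was near in 9.95% and 23.7% and any Suz12 site in 15.9% and 44.7%. Added after the data were seen, leaving out the runs of at least 5 sites gave 10.4%, 20.1% and, in depleted cells, 0.717%, and leaving them out among the wide sites gave 11.7% with any Suz12 site within 10 kb. Leaving out the 3 long runs and the Hox stretches, places picked for their values, gave 0.316%, a difference of -5.56 points. Of none of these shifts was the cause tested. The differences in H3K27me3 of depleted cells and in the share on the X depend on the selection, so a kept sign is a description only. Those in Suz12 neighbours within 10 kb are likewise given without a test. Counting both end positions as part of a site removed 1 site, leaving 2281. No paired analysis was possible because a list of sites has no replicate number. The alternative without each Phf19 replicate was not run, since 1 list of common sites was used, and alternatives on sequence were not run. Without depth, a site just under a peak threshold cannot be told from one without signal.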
